A study of Saccharomyces cerevisiae with 8 samples.

Results

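The experiment described here sets yeast cells held at 35 °C for 90 min before a salt shock against cells held there for 2 h, in the strains of the series that lack *SNF1*. Its members are 6 of the 8 arrays of the series, chosen by the strain and the heat time in their labels. The groups were *snf1* at 90 min (1 array, replicate 1), *cdc14-3 snf1* at 90 min (1 array, replicate 1), *snf1* at 2 h (2 arrays, replicates 2 and 3) and *cdc14-3 snf1* at 2 h (2 arrays, replicates 2 and 3). All were *Saccharomyces cerevisiae* W303 strains grown in rich YPD medium at 25 °C and shifted to 35 °C, and all received 0.7 M NaCl for 30 min at 35 °C. Every group lacks *SNF1*. In the double mutant Cdc14 also carries the temperature-sensitive cdc14-3 change, and the study describes *cdc14-3* cells as almost all arrested in M phase after 90 min at 35 °C. The 2 remaining arrays, of *cdc14-3* at 2 h, were used to sort genes by the size of their salt response in that strain. They also entered an alternative fit of all 8 arrays.

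Heat time and replicate number split these arrays in the same way: both 90 min arrays are replicate 1, and all 4 arrays at 2 h are replicates 2 and 3. The heat times are those of the labels. The study's methods name the longer heat for the experiment these strains belong to and do not set replicate 1 apart, so the labels and the methods disagree on its heat time. A difference between heat times also cannot be told apart from a difference between replicate 1 and the other replicates. The labels do not say that the arrays came from separate cultures, so the p-values measure only the spread between these arrays, which may be technical.

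Each array gave 1 value per genomic feature, the log2 ratio of salt-treated over unstressed cells of the same strain, here called the NaCl ratio. The treated cells spent the 30 min of salt treatment at 35 °C in addition to the heat before it. The quantity tested was the difference of NaCl ratios, 90 min minus 2 h, so that a difference of 1 is a 2-fold larger ratio at 90 min. Such a difference can come from the treated culture or from the unstressed culture on the same array, and these cannot be told apart. The dyes were assigned alike on all arrays, so a dye bias of a gene that is the same on every array cancels in the difference. A bias that varies between arrays would not cancel, and this was not tested. The direction of the ratios is not stated with the values. It was read from the data: 67 measured genes listed as controlled by Hot1, an activator of osmotic genes, averaged above 0 on all 6 arrays (0.99 to 1.94), and the 137 cytosolic ribosomal protein genes averaged below 0 (-1.56 to -0.38). Base 2 is likely but not stated with the values.

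By way of background, high salt withdraws water from yeast cells and activates the Hog1 kinase pathway, which raises glycerol synthesis and glycerol uptake. Salt and heat both also set off a general stress programme driven in large part by the factors Msn2 and Msn4, in which protective genes rise and genes for ribosomes fall, and heat further engages the chaperone regulator Hsf1. Cells at a raised temperature adapt with time, so the unstressed reference can itself differ with the length of heat. Snf1 is the yeast AMP-activated kinase and releases genes for alternative carbon sources from glucose repression. Cdc14 is the phosphatase that lets cells leave mitosis.

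The table held 6868 features, of which 6349 had a value on all 6 arrays and were tested. The 6 arrays carried between 6401 and 6776 values each, and the number of arrays limits the precision. No array was a copy of another. The median absolute deviation of the tested values was 0.88 on the *snf1* 90 min array and 0.72 on the *cdc14-3 snf1* 90 min array, against 0.72 and 0.59 in *snf1* at 2 h and 0.62 and 0.56 in *cdc14-3 snf1* at 2 h. In each strain the 90 min array was thus the broadest, and its part in the differences below was not tested beyond the rescaled values given beside them.

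The mutated genes were examined first. The *SNF1* (YDR477W) ratio was 2.41 on the *snf1* 90 min array, against -0.30 and -0.43 in *snf1* at 2 h. In *cdc14-3 snf1* it was 0.19 at 90 min, against 0.28 and 0.03 at 2 h. A single array thus stood apart. The ratio is taken within a strain, measures no level, and so cannot check the deletion. The *CDC14* (YFR028C) ratio was 0.46 in *snf1* at 90 min, against 0.52 and 0.44 at 2 h, and 0.36 in *cdc14-3 snf1* at 90 min, against 0.00 and 0.21 at 2 h. Its difference of 0.12 was within the spread (SE 0.19, limma adjusted p 0.783).

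Gene by gene, no difference between heat times passed the test. With strain as a term, limma called 0% of the 6349 features at an adjusted p of 0.05, and the smallest adjusted p was 0.119. Without adjustment 987 features had a p under 0.05, of which 525 were higher at 90 min (8.27% of those tested) and 462 lower (7.28%). None of 17 alternative fits of this contrast called a feature either. The median standard error of a difference was 0.22, which gives a 95% interval of ±0.51 around a typical gene. The 25th and 75th percentiles of all differences were -0.26 and 0.25, the 5th and 95th were -0.63 and 0.76, 144 features reached 1 and 61 reached -1. The genes below are therefore described by their values and none is a call. For 18.2% of features the 90 min array lay above both 2 h arrays of its own strain in both strains, and for 17.2% below them. For 9.83% both 90 min arrays lay above all 4 arrays at 2 h, and for 11.8% below all 4.

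The 90 min arrays of the 2 strains resembled each other more than the 2 h arrays did. Their NaCl ratios differed by a median of 0.24 between *cdc14-3 snf1* and *snf1* at 90 min, against 0.38 to 0.46 over the 4 pairs of strains at 2 h. Replicates of 1 strain at 2 h differed by 0.23 (*snf1*) and 0.19 (*cdc14-3 snf1*). The *snf1* array at 90 min differed from its own 2 h arrays by 0.40 and 0.42, and the *cdc14-3 snf1* array at 90 min from its own by 0.30 and 0.26. Across features, which are not independent replicates, the 90 min arrays of the 2 strains correlated with Pearson's r of 0.90, against 0.56 to 0.65 between the strains at 2 h.

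The features with the smallest p that were higher at 90 min in both strains included the glycogen genes *GSY1* and *GLC3*. *GSY1* (YFR015C), a glycogen synthase, had ratios of 4.19 (*snf1*) and 2.55 (*cdc14-3 snf1*) at 90 min, against 2.44 and 1.66 in *snf1* and 0.75 and 1.26 in *cdc14-3 snf1* at 2 h. The 90 min ratios were higher by 1.84 (SE 0.29, limma adjusted p 0.146). Both 90 min arrays lay above all 4 arrays at 2 h. *GLC3* (YEL011W), the glycogen branching enzyme, had 3.87 and 2.64 at 90 min, against 2.53 and 1.95 in *snf1* and 1.69 and 1.40 in *cdc14-3 snf1* at 2 h (difference 1.37, SE 0.25, limma adjusted p 0.146), again with no overlap. Among the alternatives its difference was lowest, 0.69, when the arrays were scaled to a common spread.

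*INO1* (YJL153C), which makes inositol phosphate, the precursor of inositol lipids, had ratios of 2.79 in *snf1* and 2.11 in *cdc14-3 snf1* at 90 min, against 1.86 and 1.85 in *snf1* and 0.77 and 0.57 in *cdc14-3 snf1* at 2 h (difference 1.19, SE 0.20). The water channel gene *AQY1* (YPR192W) had 2.47 and 1.59 at 90 min, against 1.25 and 1.57 in *snf1* and -0.36 and -0.28 in *cdc14-3 snf1* at 2 h (difference 1.48, SE 0.24). The Hsp70 chaperone gene *SSA3* (YBL075C) had 2.10 and 0.65 at 90 min, against 1.08 and 0.85 in *snf1* and -0.28 and -0.62 in *cdc14-3 snf1* at 2 h (difference 1.12, SE 0.20). *INO1* and *AQY1* did not overlap between heat times. For *SSA3* the *cdc14-3 snf1* array at 90 min lay below the *snf1* arrays at 2 h, though above both 2 h arrays of its own strain. The other 5 features named on the higher side were YMR316C-A, YDL114W, YDR182W-A, YPL276W and *ICS3*, with differences of 1.14 to 1.70. Of these YMR316C-A overlaps *DIA1*, YPL276W overlaps *FDH2* and *ICS3* overlaps YJL077W-A in the RefSeq table, so their signal may come from the neighbour.

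Among the 10 features named as lower at 90 min in both strains, 3 act at the cell wall and *PSA1* makes a sugar precursor for its proteins. These 10 were picked by their p, and the share of such genes over all features was not counted. *CWP2* (YKL096W-A), a cell wall mannoprotein, had ratios of -1.29 (*snf1*) and -1.55 (*cdc14-3 snf1*) at 90 min, against 0.13 and 0.02 in *snf1* and -0.14 and -0.24 in *cdc14-3 snf1* at 2 h (difference -1.37, SE 0.18, limma adjusted p 0.146). *EXG1* (YLR300W), a cell wall glucanase, had -2.16 and -1.57 at 90 min, against -1.01 and -0.73 in *snf1* and -0.15 and -0.20 in *cdc14-3 snf1* at 2 h (difference -1.34, SE 0.19). *GAS1* (YMR307W), which elongates wall glucan, had -1.66 and -1.61 at 90 min, against -0.55 and -0.27 in *snf1* and -0.79 and -0.47 in *cdc14-3 snf1* at 2 h (difference -1.11, SE 0.20). In all 3 genes both 90 min arrays lay below every 2 h array. *PSA1* (YDL055C), which makes the GDP-mannose used to glycosylate wall proteins, had -1.93 and -1.57 at 90 min, against -0.73 and -0.41 in *snf1* and -0.43 and -0.63 in *cdc14-3 snf1* at 2 h (difference -1.20, SE 0.20). The list of the cell wall integrity pathway, which holds *CWP2* and *GAS1*, leaned lower, with members in both directions. Of 47 genes measured 17 had a difference above 0 and 30 below. At an unadjusted p under 0.05, 3 were higher (6.38%, against 8.27% of all features) and 8 lower (17.0%, against 7.28%). The 8 include *CWP2* and *GAS1*, which were picked by their p. The median was -0.18, or -0.17 within *snf1* and -0.22 within *cdc14-3 snf1*.

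Of the same 10, *FCY2* and *HPT1* serve purine supply. *FCY2* (YER056C), a purine and cytosine permease, had -2.93 in *snf1* and -2.53 in *cdc14-3 snf1* at 90 min, against -1.67 and -1.38 in *snf1* and -1.24 and -1.35 in *cdc14-3 snf1* at 2 h (difference -1.32, SE 0.19). *HPT1* (YDR399W), a purine salvage enzyme, had -2.95 and -2.58 at 90 min, against -1.76 and -1.67 in *snf1* and -1.80 and -1.43 in *cdc14-3 snf1* at 2 h (difference -1.10, SE 0.20). Both ratios were below 0 on every array, and both 90 min arrays lay below all 4 arrays at 2 h. Among the alternatives the differences were smallest in size at -0.78 for *FCY2* and -0.53 for *HPT1*. Of the 21 measured genes of the purine and GTP list, 0 were higher and 2 lower at an unadjusted p under 0.05 (9.52%, against 7.28% of all features). The 2 lower members are *FCY2* and *HPT1* themselves, so the list adds no further gene. The list median was -0.26 (-0.02 and -0.09 after scale and quantile normalization), with -0.55 within *snf1* and 0.03 within *cdc14-3 snf1*. Of the remaining 4, *ACM1* encodes an inhibitor of the anaphase-promoting complex, *YHP1* a cell cycle repressor, *TYE7* an activator of glycolytic genes and *SPL2* a regulator of phosphate uptake, with differences of -1.25 to -1.18. For *ACM1* (YPL267W) the strains kept apart within each heat time: -0.74 in *snf1* and 0.57 in *cdc14-3 snf1* at 90 min, against 0.61 and 0.57 in *snf1* and 1.69 and 1.52 in *cdc14-3 snf1* at 2 h.

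**Figure D1:**
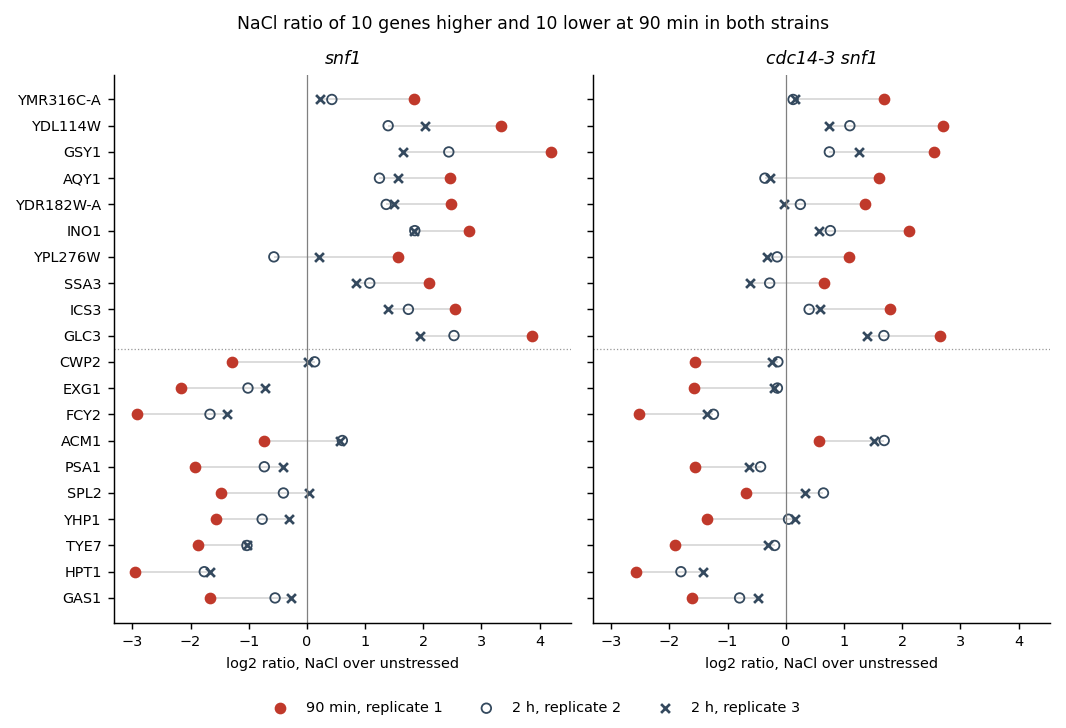
NaCl ratios (log2, x axis) of 10 genes that were higher and 10 that were lower at 90 min in both strains, among those with the smallest unadjusted p; red points are the 90 min array of each strain, open circles and crosses its 2 h arrays, and the dotted line parts the 2 sets. In each strain every 90 min point lies beyond both 2 h points, which the choice of these genes required, and no gene passed the adjusted test.

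Outside protein-coding genes the smallest p belonged to snR8, a small nucleolar RNA of the class that guides pseudouridylation of ribosomal RNA. Its ratios were -1.26 in *snf1* and -1.30 in *cdc14-3 snf1* at 90 min, against 0.47 and 0.34 in *snf1* and 0.39 and 0.27 in *cdc14-3 snf1* at 2 h. The difference was -1.65 (SE 0.18, limma adjusted p 0.119). Over the 68 small nuclear and nucleolar RNA features as a list the median difference was -0.07, with 1 higher and 3 lower at an unadjusted p under 0.05, so snR8 lay at the low end of its class.

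Groups of genes were then described by their median difference, beside a median of -0.02 over all 6349 features. Each group's share of members with an unadjusted p under 0.05 is to be read against 8.27% higher and 7.28% lower among all features. Of 48 lists, 20 had a median above 0 and 28 below. The medians ran from -0.95 (histones) to 0.80 (glycogen metabolism). A median within 1 strain is also the value left when the 90 min array of the other strain is taken out. No member of any list was called.

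Histone genes had lower ratios at 90 min in both strains. Of the 11 histone genes measured all 11 had a difference below 0, 9 with an unadjusted p under 0.05, and the median difference was -0.95, or -0.71 and -0.69 after scale and quantile normalization. On average the members had ratios of -1.17 in *snf1* and -0.63 in *cdc14-3 snf1* at 90 min, against -0.59 and -0.46 in *snf1* and 0.75 and 0.20 in *cdc14-3 snf1* at 2 h. In the double mutant the sign of the mean itself thus differed between heat times. *HTB2* (YBL002W), a histone H2B gene, had -1.44 and -0.78 at 90 min, against -0.74 and -0.33 in *snf1* and 1.98 and 1.02 in *cdc14-3 snf1* at 2 h (difference -1.59, SE 0.38, limma adjusted p 0.161). *HTA2*, encoding H2A, had a difference of -1.34. The variants *HTZ1* and *CSE4* had the smallest, -0.22 and -0.11. Core histone genes are near-duplicates, so their signals may be mixed.

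The G1 and S phase cyclins and their companions differed by heat time mainly in *cdc14-3 snf1*. *CLN2* (YPL256C), a G1 cyclin, had ratios of -1.86 in *snf1* and -1.28 in *cdc14-3 snf1* at 90 min, against -1.49 and -1.18 in *snf1* and 0.25 and 0.11 in *cdc14-3 snf1* at 2 h (difference -0.99, SE 0.25, limma adjusted p 0.174). *CLN1* (YMR199W) had -1.03 and -0.87 at 90 min, against -1.17 and -0.83 in *snf1* and 0.27 and 0.32 in *cdc14-3 snf1* at 2 h (difference -0.60, SE 0.28). The 90 min array of the double mutant was far below its 2 h arrays in both genes. In *snf1* the *CLN1* arrays overlapped, and for *CLN2* the 90 min array lay below both 2 h arrays by a smaller distance.

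*CLB6* (YGR109C), an S phase cyclin, had -0.29 in *snf1* and 1.01 in *cdc14-3 snf1* at 90 min, against -0.57 and -0.31 in *snf1* and 3.79 and 3.32 in *cdc14-3 snf1* at 2 h (difference -1.19, SE 0.53, limma adjusted p 0.328). *CLB5* (YPR120C), its partner in S phase, had -0.08 and 0.44 at 90 min, against 0.14 and 0.05 in *snf1* and 1.10 and 0.94 in *cdc14-3 snf1* at 2 h (difference -0.38, SE 0.19). Salt-treated *cdc14-3 snf1* cells after 90 min of heat were thus between *snf1* cells and their own 2 h arrays for both S phase cyclins. Over the 9 cyclin genes the median difference was -0.41, with 1 higher (*CLB4*, 0.46) and 2 lower (*CLN2* and *CLB1*) at an unadjusted p under 0.05. It was -0.03 within *snf1* and -0.66 within *cdc14-3 snf1*.

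*RNR1* (YER070W), the large subunit of ribonucleotide reductase used in S phase, also differed more in *cdc14-3 snf1*. It had -1.15 in *snf1* and -0.31 in *cdc14-3 snf1* at 90 min, against -0.67 and -0.24 in *snf1* and 1.90 and 1.89 in *cdc14-3 snf1* at 2 h (difference -1.45, SE 0.34). *RNR3*, the form induced by DNA damage, differed the other way, by 1.09 (SE 0.25). The 56 DNA replication genes as a whole had a median difference of -0.03, with 4 higher and 2 lower at an unadjusted p under 0.05.

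The study's list of cell cycle genes, which its authors picked for induction by salt in *cdc14-3* cells and which is thus no independent evidence on the gap between strains, had 130 members measured. Averaged over the list, the ratio was -0.33 in *snf1* and 0.02 in *cdc14-3 snf1* at 90 min, against -0.20 and -0.17 in *snf1* and 0.54 and 0.45 in *cdc14-3 snf1* at 2 h. The median difference was -0.23, or -0.25 under both scalings, -0.08 within *snf1* and -0.34 within *cdc14-3 snf1*, and 2 members were higher and 36 lower at an unadjusted p under 0.05. *TOS6* (YNL300W), a cell wall protein gene expressed in G1, had the lowest difference, -2.29 (SE 0.51, limma adjusted p 0.155). Its ratio was -3.05 and -2.03 at 90 min, against -2.08 and -1.60 in *snf1* and 1.91 and 0.79 in *cdc14-3 snf1* at 2 h. The gap of the list mean between the strains, *cdc14-3 snf1* minus *snf1*, was 0.35 at 90 min and 0.68 at 2 h. The list holds the histone genes above that belong to it, so the 2 counts share members.

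Other cell cycle groups had medians nearer 0. The 30 genes of the *CLB2* cluster, which peak in mitosis, had a median difference of 0.08, with a mean of -0.03 of the opposite sign, and 1 was higher and 3 lower at an unadjusted p under 0.05. The 21 mitotic exit network genes had a median of 0.06, with 1 higher and 0 lower, and the 16 regulators of the G1 transcription factors SBF and MBF had -0.05, with 1 higher and 0 lower. The medians of these 3 lists were above 0 within *snf1* and below 0 within *cdc14-3 snf1*.

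**Figure D2:**
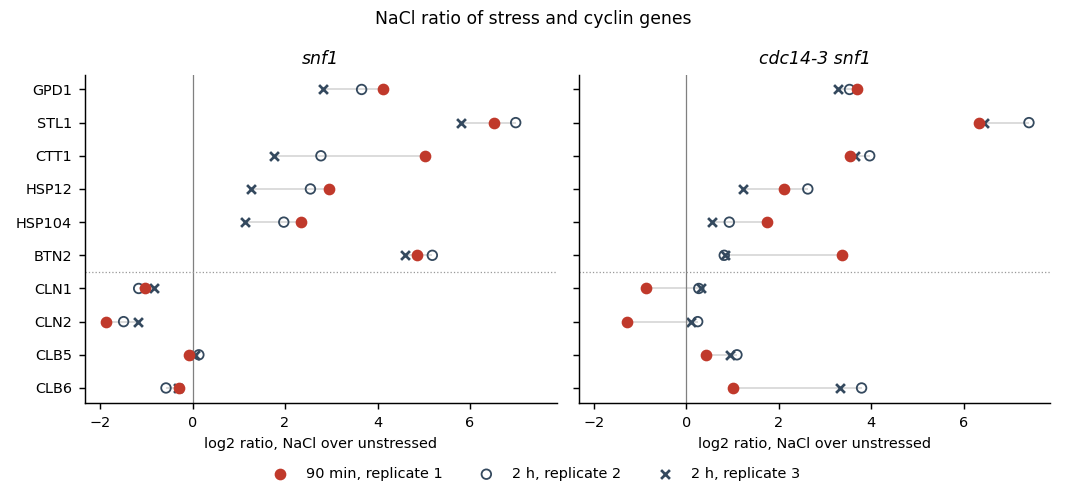
NaCl ratios (log2, x axis) of 6 stress genes above the dotted line and 4 cyclin genes below it; red points are the 90 min array of each strain, open circles and crosses its 2 h arrays. In *cdc14-3 snf1* the 90 min points of the 4 cyclin genes lie below both 2 h points and that of *BTN2* lies above them, while in *snf1* that of *CTT1* lies farthest from its 2 h points.

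Chaperone genes had higher ratios at 90 min, and the difference lay mainly in *cdc14-3 snf1*. Of 32 genes for chaperones and related heat shock proteins 30 had a difference above 0, 10 of them with an unadjusted p under 0.05 and none lower. The median difference was 0.35 (0.29 and 0.26 after scale and quantile normalization), 0.60 within *cdc14-3 snf1* and 0.01 within *snf1*. Members averaged 1.29 in *snf1* and 0.79 in *cdc14-3 snf1* at 90 min, against 1.25 and 0.89 in *snf1* and 0.13 and -0.11 in *cdc14-3 snf1* at 2 h.

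*HSP104* (YLL026W), the protein disaggregase, was higher in both strains. It had 2.34 in *snf1* and 1.75 in *cdc14-3 snf1* at 90 min, against 1.97 and 1.12 in *snf1* and 0.93 and 0.55 in *cdc14-3 snf1* at 2 h (difference 0.90, SE 0.27, limma adjusted p 0.226). *BTN2* (YGR142W), which sorts misfolded proteins, had 4.85 and 3.38 at 90 min, against 5.18 and 4.59 in *snf1* and 0.82 and 0.83 in *cdc14-3 snf1* at 2 h (difference 1.26, SE 0.52, limma adjusted p 0.315). Its *snf1* arrays overlapped, and in the double mutant the 90 min array lay above both 2 h arrays. *SSA4* (YER103W), a stress-induced Hsp70 gene, had 4.71 and 3.54 at 90 min, against 4.99 and 3.48 in *snf1* and 1.53 and 0.54 in *cdc14-3 snf1* at 2 h (difference 1.49, SE 0.57), with overlap in *snf1* and none in the double mutant. The constitutive Hsp70 genes *SSA1* and *SSA2* differed by 0.13 and 0.12.

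Glycogen genes had higher ratios at 90 min. Of 13 glycogen genes 10 had a difference above 0, 7 with an unadjusted p under 0.05 and none lower. The mean over members was 2.04 in *snf1* and 1.25 in *cdc14-3 snf1* at 90 min, against 1.23 and 0.83 in *snf1* and 0.81 and 0.91 in *cdc14-3 snf1* at 2 h. The median of 0.80 was 0.43 and 0.47 after scale and quantile normalization, 0.90 within *snf1* and 0.28 within *cdc14-3 snf1*. Beside *GSY1* and *GLC3* the list held *SGA1*, a glucoamylase expressed in sporulation (1.52, SE 0.34). *GSY2*, the second glycogen synthase, differed by -0.12. For the 10 trehalose genes the mean ratio was 1.46 in *snf1* at 90 min, against 0.59 and 0.33 at 2 h. In *cdc14-3 snf1* it was 1.22 at 90 min, against 1.48 and 1.35 at 2 h, so the differences of the strains were opposite in sign. The median of 0.44 was 0.08 and 0.04 after scaling.

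Genes of fatty acid oxidation and of gluconeogenesis, which yeast uses on poor carbon sources, had medians above 0. The TCA cycle and respiratory lists given below had medians below 0. Many genes used on poor carbon sources are known to depend on Snf1, which no strain here has. Of 28 genes of fatty acid oxidation and peroxisomes 9 were higher at an unadjusted p under 0.05 and none lower (median 0.28, with 0.53 within *snf1* and 0.21 within *cdc14-3 snf1*). *CTA1* (YDR256C), the peroxisomal catalase, had 3.13 and 1.98 at 90 min, against 2.46 and 1.74 in *snf1* and 0.51 and 0.65 in *cdc14-3 snf1* at 2 h (difference 1.22, SE 0.25, limma adjusted p 0.148). Of 25 genes of gluconeogenesis and the glyoxylate cycle 9 were higher and 1 lower (median 0.40, and 0.15 and 0.20 after scaling), with 0.70 within *snf1* and 0.08 within *cdc14-3 snf1*, among them the lactate transporter gene *JEN1* (0.93, SE 0.30).

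Of 30 measured genes of hexose transport and glucose sensing 8 were higher and 1 lower (median 0.39, and 0.25 and 0.35 after scaling). The median was 0.64 within *snf1* and 0.08 within *cdc14-3 snf1*, whereas the pair with the largest differences differed more in *cdc14-3 snf1*. *MTH1* (YDR277C), a repressor of hexose transporter genes, had 2.93 in *snf1* and 1.48 in *cdc14-3 snf1* at 90 min, against 2.25 and 1.83 in *snf1* and -0.91 and -0.25 in *cdc14-3 snf1* at 2 h (difference 1.48, SE 0.32). *HXT4* (YHR092C), a hexose transporter gene, had 2.76 and 1.17 at 90 min, against 2.12 and 1.87 in *snf1* and -0.96 and -0.78 in *cdc14-3 snf1* at 2 h (difference 1.40, SE 0.30). In the double mutant both ratios were above 0 at 90 min and below 0 at 2 h. The hexose transporter genes are similar in sequence, so *HXT4* may share signal with its relatives.

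In contrast, the 28 glycolysis genes had a median difference of -0.37 (-0.20 and -0.28 after scaling), with 0 higher and 5 lower. It was -0.58 within *snf1* and -0.17 within *cdc14-3 snf1*. The 24 genes of the TCA cycle had -0.22, with 0 higher and 2 lower. For the 46 nuclear genes of the respiratory chain and ATP synthase the median was -0.43 (-0.36 under both scalings), with 2 higher and 17 lower. They averaged -0.44 in *snf1* and -0.30 in *cdc14-3 snf1* at 90 min, against -0.03 and 0.02 in *snf1* and 0.14 and -0.02 in *cdc14-3 snf1* at 2 h, with no overlap. *COX7*, a subunit of cytochrome oxidase, differed by -1.11 (SE 0.28), and *ATP19*, associated with ATP synthase, by -1.08 (SE 0.23).

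Genes of ER folding, sulfur amino acid synthesis and phosphate uptake had medians below 0. Of 30 genes of ER folding and the unfolded protein response 27 had a difference below 0, 9 with an unadjusted p under 0.05 and none higher (median -0.37, and -0.27 and -0.26 after scaling). The lowest was that of *OST3*, a subunit of the oligosaccharyltransferase (-0.82, SE 0.19). Of 32 genes of sulfur amino acid synthesis 12 were lower and none higher (median -0.51, and -0.33 and -0.35 after scaling), with -0.70 within *snf1* and -0.13 within *cdc14-3 snf1*. *MET14*, a kinase of sulfate assimilation, differed by -1.30 (SE 0.42) and the methionine permease gene *MUP1* by -1.14 (SE 0.32). Of 27 phosphate regulon genes 8 were lower and none higher (median -0.25, with -0.50 within *snf1* and -0.18 within *cdc14-3 snf1*), with *PHO84*, the main phosphate transporter gene, at -1.24 (SE 0.28) and *PHM6* at -1.29 (SE 0.27).

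Meiotic genes had higher ratios at 90 min in both strains. Of 31 measured genes of meiosis and sporulation 27 had a difference above 0, 15 with an unadjusted p under 0.05 and none lower (median 0.54, and 0.28 and 0.33 after scaling). On average the members had ratios of 1.46 in *snf1* and 0.91 in *cdc14-3 snf1* at 90 min, against 0.96 and 0.76 in *snf1* and 0.32 and 0.48 in *cdc14-3 snf1* at 2 h. *SPS4* (YOR313C), a sporulation gene, had 2.14 and 1.62 at 90 min, against 0.98 and 1.53 in *snf1* and -0.09 and 0.35 in *cdc14-3 snf1* at 2 h (difference 1.18, SE 0.26). *MEI5*, a meiotic recombination gene, differed by 1.70 (SE 0.44).

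Of 36 pheromone response genes 6 were higher and 1 lower (median 0.18), with *PRM1*, a gene of cell fusion in mating, at 1.21 (SE 0.23). Of 24 seripauperin genes, a wall protein family so alike in sequence that members may share signal, 23 had a difference above 0 and 6 an unadjusted p under 0.05, all higher (median 0.51, and 0.43 and 0.42 after scaling). The median was 0.15 within *snf1* and 0.85 within *cdc14-3 snf1*.

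**Figure D3:**
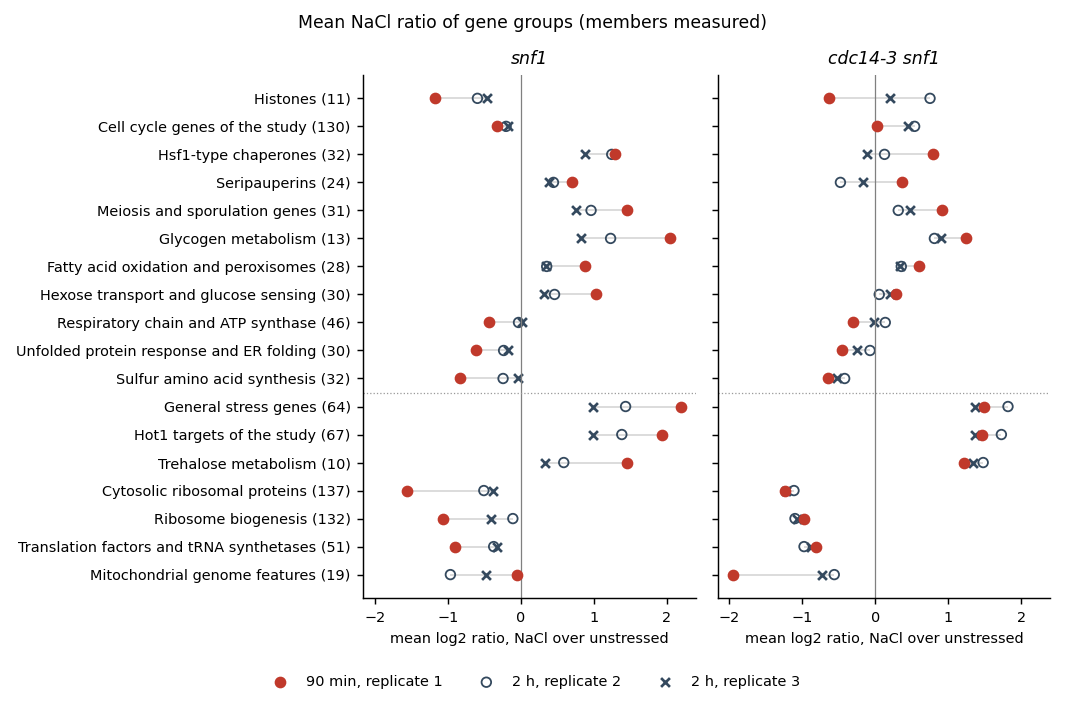
Mean NaCl ratio (log2, x axis) of 18 gene groups, with the number of members measured in parentheses. Red points are the 90 min array of each strain, and open circles and crosses its 2 h arrays. Above the dotted line the median difference of each group had the same sign in both strains. For some of these it lay mainly in 1 strain, as for chaperone genes in *cdc14-3 snf1*. Below the line the medians opposed in sign, except for ribosomal protein genes, whose difference lay mainly in *snf1*. Ribosomal protein genes averaged -1.56 on the *snf1* 90 min array, far from its 2 h arrays, while the 3 arrays of *cdc14-3 snf1* lay between -1.24 and -1.11.

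The large groups of the stress response had differences in *snf1* that were near 0 in *cdc14-3 snf1*, though each rests on 1 array at 90 min. All 137 cytosolic ribosomal protein genes had a difference below 0, and 59 were lower at an unadjusted p under 0.05. Averaged over the list, the ratio was -1.56 in *snf1* at 90 min, against -0.51 and -0.38 at 2 h. In *cdc14-3 snf1* it was -1.24 at 90 min, against -1.11 and -1.22 at 2 h. The median difference was -1.11 within *snf1* and -0.06 within *cdc14-3 snf1*, and -0.60 over both (-0.28 and -0.40 after scale and quantile normalization). *RPL31B* (YLR406C), of the large subunit, had -2.21 and -1.94 at 90 min, against -0.90 and -0.61 in *snf1* and -0.92 and -1.28 in *cdc14-3 snf1* at 2 h (difference -1.15, SE 0.23, limma adjusted p 0.147). Its difference was the lowest of the list and, unlike the list median, was far from 0 within *cdc14-3 snf1* (-0.84). Most of these genes have a near-identical copy.

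The 132 ribosome biogenesis genes had a like pattern. Their mean was -1.07 in *snf1* at 90 min, against -0.11 and -0.41 at 2 h, and -0.98 in *cdc14-3 snf1* at 90 min, against -1.10 and -1.07 at 2 h. The median difference was -0.78 within *snf1* and 0.06 within *cdc14-3 snf1*. Over both strains it was -0.33 (-0.07 and -0.16 after scaling), and 0 members were higher and 10 lower at an unadjusted p under 0.05, against a background of 7.28%. *MAK16* (YAL025C), needed for the large subunit, had -1.92 in *snf1* at 90 min, against 0.48 and -0.44 at 2 h, and -1.50 in *cdc14-3 snf1* at 90 min, against -1.30 and -1.60 at 2 h. The 51 translation factor and tRNA synthetase genes had medians of -0.58 within *snf1* and 0.12 within *cdc14-3 snf1*.

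Induced stress genes differed in the opposite direction. The 64 general stress genes averaged 2.19 in *snf1* at 90 min, against 1.44 and 0.99 at 2 h, and 1.49 in *cdc14-3 snf1* at 90 min, against 1.82 and 1.37 at 2 h. Their median difference was 1.01 within *snf1* and -0.17 within *cdc14-3 snf1*. Over both it was 0.43, with 9 higher and 2 lower at an unadjusted p under 0.05, and it was -0.01 after scale normalization and 0.00 after quantile normalization. The 67 Hot1 targets had medians of 0.72 within *snf1* and -0.07 within *cdc14-3 snf1*. Over both the median was 0.39 (0.02 and 0.06 after scaling), with 9 higher and 4 lower.

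*CTT1* (YGR088W), the cytosolic catalase gene and a standard Msn2 and Msn4 target, had 5.04 in *snf1* at 90 min, against 2.78 and 1.76 at 2 h, and 3.55 in *cdc14-3 snf1* at 90 min, against 3.97 and 3.66 at 2 h. Its difference over both strains was 1.25 (SE 0.62, limma adjusted p 0.366). *HSP12* (YFL014W), a membrane-stabilising stress protein gene, had 2.95 and 2.11 at 90 min, against 2.55 and 1.27 in *snf1* and 2.63 and 1.23 in *cdc14-3 snf1* at 2 h (difference 0.61, SE 0.48), and its arrays overlapped in *cdc14-3 snf1*.

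For the core osmotic genes the differences had intervals that span 0. *GPD1* (YDL022W), the first enzyme of glycerol synthesis, had 4.11 in *snf1* and 3.69 in *cdc14-3 snf1* at 90 min, against 3.65 and 2.81 in *snf1* and 3.53 and 3.27 in *cdc14-3 snf1* at 2 h. Both 90 min arrays lay above all 4 arrays at 2 h. The difference was 0.58 (95% interval -0.08 to 1.24, limma adjusted p 0.359), and it was -0.30 after scale normalization. *STL1* (YDR536W), the glycerol importer gene, had 6.51 and 6.32 at 90 min, against 6.99 and 5.80 in *snf1* and 7.41 and 6.45 in *cdc14-3 snf1* at 2 h. Its difference was -0.24 (95% interval -1.18 to 0.69), and 0.50 after quantile normalization. The 17 glycerol genes had a median of -0.10 and no member with an unadjusted p under 0.05. Of 29 HOG pathway genes 4 were higher and 2 lower (median 0.02), the largest being *RCK1*, a kinase gene (1.61, SE 0.35). The 25 genes of sodium and potassium transport had a median of 0.07, with 0 higher and 1 lower, the proton pump gene *PMA1* (-0.45, SE 0.19).

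**Figure D4:**
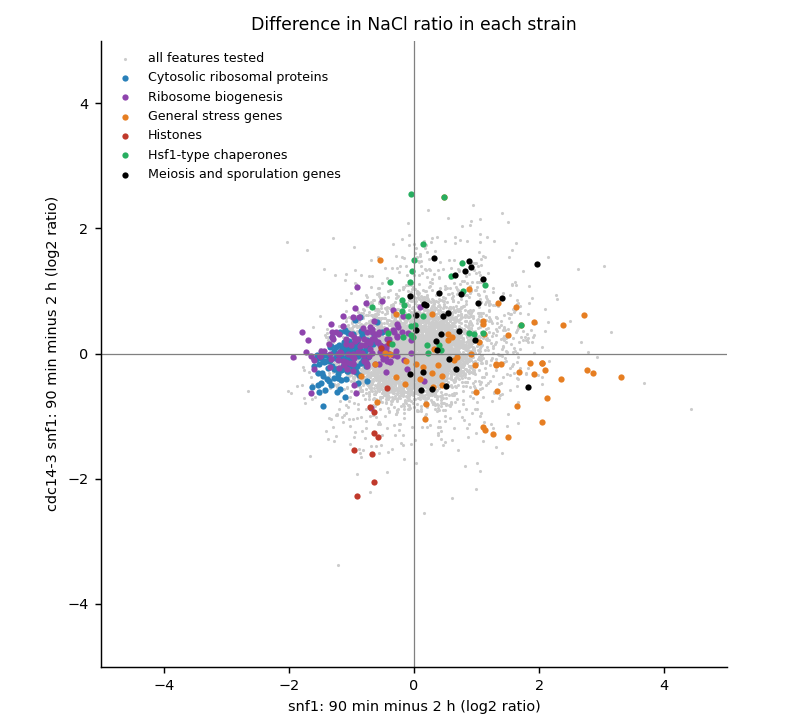
Difference of NaCl ratios, 90 min minus 2 h (log2), in *snf1* (x axis) and in *cdc14-3 snf1* (y axis) for the 6349 features tested (grey) and 6 gene groups (colours, with meiotic genes in black). Ribosomal protein and ribosome biogenesis genes spread to the left near 0 on the y axis, general stress genes to the right, histone genes to the lower left and chaperone genes upwards.

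Whether the heat time difference depends on the strain was tested by the interaction, the difference in *cdc14-3 snf1* minus that in *snf1*. Limma called 0% of features (smallest adjusted p 0.203), and 1120 (17.6%) had an unadjusted p under 0.05. The differences had the same sign in both strains for 54.3% of features and correlated across features with Pearson's r of 0.16. Their standard deviation was 0.63 in *snf1* and 0.48 in *cdc14-3 snf1*. Each strain has 1 array at 90 min, so every within-strain difference rests on a single array there.

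The 3 features with the smallest p for the interaction were *PRM7* (YDL039C), *SNF1* and snR68. *PRM7*, a pheromone-regulated gene, had -1.60 in *snf1* at 90 min, against -3.29 and -3.22 at 2 h, and -2.58 in *cdc14-3 snf1* at 90 min, against -1.52 and -1.44 at 2 h (interaction -2.76). In *snf1* the 90 min array lay above its 2 h arrays, and in *cdc14-3 snf1* below them. snR68, a small nucleolar RNA, had 0.93 in *snf1* at 90 min, against 0.00 and 0.23 at 2 h, and -1.51 in *cdc14-3 snf1* at 90 min, against 0.28 and 0.28 at 2 h (interaction -2.61). For *SNF1* the interaction was -2.75, through the single *snf1* array at 90 min. Among the genes described above, the interaction of *BTN2* was 2.59, of *CTT1* -3.03 and of *CLB6* -2.69, with limma adjusted p of 0.203, 0.206 and 0.203.

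The 19 measured features of the mitochondrial genome differed in opposite directions in the strains. Their mean was -0.05 in *snf1* at 90 min, against -0.96 and -0.47 at 2 h, and -1.95 in *cdc14-3 snf1* at 90 min, against -0.56 and -0.73 at 2 h. The median difference was 0.79 within *snf1* and -1.28 within *cdc14-3 snf1*. *COX2* (Q0250), a cytochrome oxidase subunit, had -0.44 in *snf1* at 90 min, against -0.45 and -0.34 at 2 h, and -2.02 in *cdc14-3 snf1* at 90 min, against -0.55 and -0.62 at 2 h. These features lie on 1 small genome, some overlap, and they are not independent.

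Features were also sorted by their mean ratio on the 2 *cdc14-3* arrays. These arrays are no part of the contrast, but they share the *cdc14-3* allele with the double mutant and not with *snf1*. Among the 151 features over 2 there, the median ratio was 2.06 in *snf1* at 90 min, against 1.23 and 0.82 at 2 h, and 1.63 in *cdc14-3 snf1* at 90 min, against 2.04 and 1.64 at 2 h. Among the 71 features at or below -2, it was -1.35 in *snf1* at 90 min, against -0.65 and -0.59 at 2 h, and -1.42 in *cdc14-3 snf1* at 90 min, against -1.85 and -1.48 at 2 h. In *snf1* the 90 min array thus lay farther from 0 than both 2 h arrays at both ends, and in *cdc14-3 snf1* it lay no farther than either.

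Across 6096 features the slope of the ratio on the *cdc14-3* mean was 0.71 in *snf1* at 90 min, against 0.43 and 0.37 at 2 h. In *cdc14-3 snf1* it was 0.65 at 90 min, against 0.79 and 0.64 at 2 h. The *cdc14-3* arrays are replicates 2 and 3 at 2 h, as are the 2 h arrays set against them. Their mean correlated across features with the 2 h arrays of *cdc14-3 snf1* at r of 0.89 and 0.86. For the 2 h arrays of *snf1* r was 0.47 and 0.48. At 90 min it was 0.70 in *cdc14-3 snf1* and 0.64 in *snf1*. The sorting thus follows the response of cells with the *cdc14-3* allele, and its part in these patterns was not tested.

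**Figure D5:**
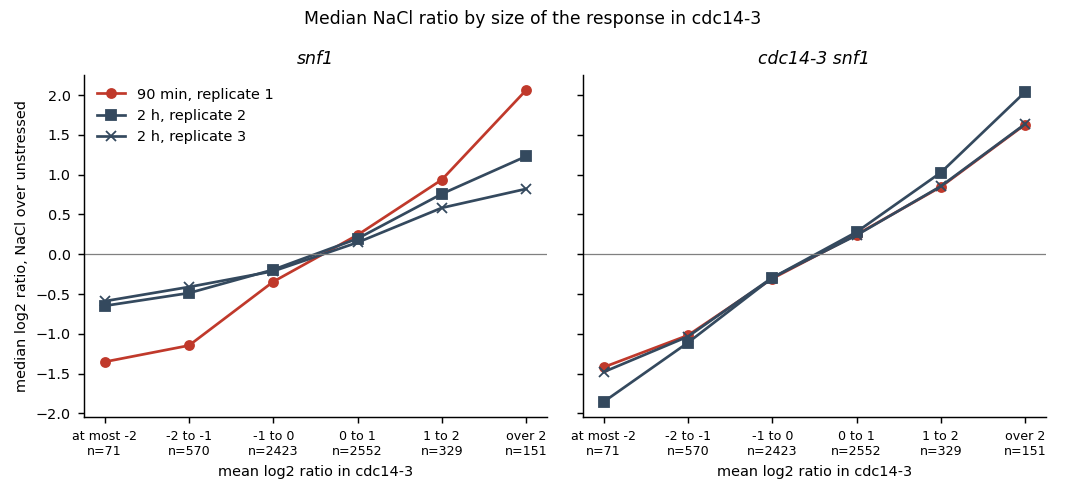
Median NaCl ratio (log2, y axis) on each array for features sorted by their mean ratio in *cdc14-3* (x axis, with the number of features in each bin); red lines are the 90 min arrays, dark lines the 2 h arrays. In *snf1* the 90 min line is the steepest, reaching 2.06 among the most induced features, and in *cdc14-3 snf1* it runs along the 2 h lines.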

How the data were processed

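The authors hybridised amino-allyl cDNA of salt-treated cells and of unstressed cells of the same strain with Oyster dyes to whole-genome tiled NimbleGen arrays, and deposited 1 normalized log2 ratio per feature and array. How probes were combined into features, and why values are missing, is not stated. The log base rests on how the study plots these ratios: 130 of 130 cell cycle genes of *snf1* replicate 1 equal the study's source data, on a log2 axis, to within 0.0001. All values were used as deposited. Each array's median was 0 to within 0.001.

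Features with a value on all 6 arrays were fitted in limma 3.58.1 (R 4.3.3) with strain and heat time as terms (eBayes, Benjamini-Hochberg over all features tested, adjusted p under 0.05, two-sided), and with the interaction added. The fit had 3 residual degrees of freedom before moderation. The procedure was tested on simulated data. Symbols came from a RefSeq table of assembly R64, which matched 5984 of 6868 features. Overlaps between genes were read from it as well, and no position is printed because the build behind the values is not given in the sources used here.

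The comparison and the 48 gene lists were chosen with earlier results of these data known. The lists are described by counts and medians and were not tested. Not every list is reported here. Named genes are the mutated genes, 10 stress and cyclin genes, the 10 matched features in each direction with the smallest unadjusted p among those beyond both 2 h arrays of their own strain in both strains, up to 2 members of each list by size of difference, and the 3 smallest p of the interaction. Other genes named in lists, and snR8 beside its list, were chosen after their values were seen. *ARG5,6*, *ADE5,7*, *AAD16* and *DUR1,2* were not matched by name. Promoter sequences were not used here. Alternatives included other scalings, array weights, all 8 arrays, a replicate block, each strain alone and leaving out each array.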

Additional observations from a re-analysis of the deposited data

Results flagged for a closer look

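For 14 of the 48 gene lists the list mean of the 90 min array lay beyond both 2 h arrays of its strain in both strains. It lay above them in 1 strain and below them in the other. The values here are the mean difference (90 min minus 2 h) in *cdc14-3 snf1* minus that in *snf1*, here called the strain gap. The strain gap was 0.92 for ribosome biogenesis, 0.65 for RNA polymerase I and III, 0.66 for translation factors and tRNA synthetases and 0.53 for mitochondrial ribosomal proteins. It was -1.20 for trehalose metabolism, -0.57 for glycerol metabolism, -0.63 for sodium and potassium transport, -0.26 for the G1 regulators, -0.26 for the *CLB2* cluster and -0.60 for the Snf1 kinase complex, where *SNF1* itself on 1 array carries much of it. It was -0.12 for oxidative stress defence, -1.24 for flocculins and adhesion, -1.96 for the mitochondrial genome and -0.33 for transfer RNA features. For the lists this difference between the strains was not tested. How often all features split in this way was not counted, so the 14 lists are a description only.

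For 9 of the 114 named genes the 90 min array lay beyond both 2 h arrays of its strain in opposite directions in the strains. None passed the interaction test in limma. The share of all features that split in this way was not counted, so the 9 are a description only. *PRM7* and snR68 had been named for a small p of the interaction itself. The interaction was -3.03 for *CTT1* (adjusted p 0.206), -2.69 for *CLB6* (0.203), -1.92 for *TPS2*, a trehalose phosphatase gene (0.212), and -2.11 for *FIT1*, a cell wall mannoprotein gene of iron uptake (0.203). It was -1.29 for *MSS11*, a regulator of adhesion (0.209), -2.94 for *BSC1* (0.203), -2.91 for Q0255, which overlaps *COX2* (0.203), -2.76 for *PRM7* (0.203) and -2.61 for snR68 (0.203).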

How the results depend on the processing

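No alternative of the heat time difference called a feature in limma (17 run, smallest adjusted p 0.0657 with all 8 arrays). The features with an unadjusted p under 0.05, 987 as reported, numbered 435 after scale normalization, 484 after quantile normalization, 394 with array weights (0.42 on both 90 min arrays) and 1748 within *snf1*, and the cause was not tested. Leaving out 1 array at a time gave 610 (without *snf1* 2 h replicate 3) to 1748 (without *cdc14-3 snf1* 90 min replicate 1). The share of these that were higher at 90 min was 53.2%, against 47.8% after scale normalization, 49.8% after quantile normalization, 60.4% with weights and 46.5% within *snf1*. The counts of separated features, under scalings chosen after seeing the data, stayed within 1.5 times.

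With a replicate block 0 features were called and 771 had an unadjusted p under 0.05. Deviations of replicates 2 and 3 correlated between the strains with r = 0.09 (rho 0.04) over 6349 features, a check that covers no replicate 1 array, since each strain has only that array at 90 min. The labels give only the shared number. The block changed no call.

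For the interaction, leaving out 1 array gave 0 to 1 called features. The call was YLR171W without *cdc14-3 snf1* 2 h replicate 3 (5.81, adjusted p 0.0447, against 3.83 and 0.363 as reported). Of 114 named genes 98 kept their sign under every alternative run, leaving out each array included. After scale normalization *BSC1* was 0.37, *GPD1* -0.30 and *THI4* -0.03, and after quantile normalization *STL1* was 0.50. Of 48 list medians 7 and 6 changed sign under these scalings, and 15 did so within *cdc14-3 snf1*. The number of arrays, with 1 at 90 min per strain, limits what could be called. A search for promoter motifs was not run.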
